A study of Mus musculus with 6 samples.

Results

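RNA-seq libraries of muscle satellite cells (SCs) came from mice with a conditional deletion of Nfya and from controls. In those libraries, a set of 10 genes used as marks of the mural cells of blood vessels was examined. They comprised 6 pericyte genes (Pdgfrb, Rgs5, Cspg4, Abcc9, Mcam and Anpep) and 4 smooth muscle genes (Myh11, Cnn1, Tagln and Myocd), were taken by symbol and made up 10 of the 35976 genes listed in each library. All 10 had more than 10 counts in at least 2 libraries and so were among the 17348 genes tested. The 3 NF-YAcKO libraries came from mice with both Nfya alleles floxed and a Pax7-CreERT2 allele, whose Cre is active after tamoxifen in cells that use the Pax7 promoter. The 3 NF-YAfl/fl controls had the floxed alleles without Cre, and both groups received tamoxifen (20 mg/ml). The labels give an age of 5 to 7 weeks, whereas the methods of the study describe somewhat older male mice. SCs were obtained from hindlimb muscle by magnetic depletion of cells bearing CD31, CD45, CD11b or Sca1 and were grown for some days in growth medium. None of these antibodies is directed against a pericyte or smooth muscle protein of the set.

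Pericytes wrap the capillaries and smooth muscle cells the larger vessels. Pericytes are recruited by endothelial PDGF-B through its receptor PDGFRβ, and the contractile genes of smooth muscle are switched on by serum response factor (SRF) with its coactivator myocardin. Several of these genes are not exclusive to mural cells: myoblasts, fibroblasts and myeloid cells in culture use some of them, and the muscle forms of the ATP-sensitive potassium channel contain the product of Abcc9. In bulk RNA, fewer cells of a type and less RNA per cell cannot be told apart.

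The libraries held 26936230 to 41118984 expected counts. In the targeted gene, the authors had added a transcript entry for the deleted allele. It received 22.3%, 26.4% and 34.2% of the Nfya counts in the NF-YAcKO libraries and 0 counts in each NF-YAfl/fl library. Nfya as a whole gene was at 27.0 to 28.5 CPM in NF-YAcKO and 23.4 to 36.9 CPM in NF-YAfl/fl. CPM are counts per 1000000 of the library total after TMM scaling, which adjusts the totals between libraries. Xist was at 835 to 852 CPM in all NF-YAcKO libraries and under 0.5 CPM in all controls, and Ddx3y showed the opposite, and with genotype and sex-linked expression fully confounded, these cannot be told apart. Pax7, which marks SCs, was present in all libraries (73.5 to 201 CPM). Of 18 further pericyte genes, Kcnj8, Higd1b and Vtn did not reach the count filter, whereas others were present, such as Notch3 at 14.5 to 113 CPM and Tbx18 at 7.07 to 20.1 CPM. NF-YAfl/fl replicate 3 was below 0.5 times the mean of the other controls in 7 of the 10 genes, and the fold change of each of the 10 is therefore given with and without it.

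Most of the set did not separate the genotypes. Abcc9, the sulfonylurea receptor SUR2 of ATP-sensitive potassium channels, fell in NF-YAcKO cells, and Anpep, the surface aminopeptidase CD13, rose. A gene is referred to as called where edgeR's quasi-likelihood test gave a Benjamini-Hochberg FDR under 0.01 with a log2 fold change above 1 or below -1. By that rule 1 of the 10 genes was called higher and 1 lower, against 4.65% higher and 7.67% lower over all tested genes. Without NF-YAfl/fl replicate 3 the counts were 1 higher and 4 lower, against 4.97% and 9.81%. The median log2 fold change of the 10 genes was -0.41 (all tested genes -0.02), and 7 of the 10 had a negative value. By library, Anpep and Tagln were higher in every NF-YAcKO library than in every control (29.1% of tested genes were), Abcc9 and Rgs5 were lower (26.2%), and the other 6 overlapped.

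**Figure D1:**
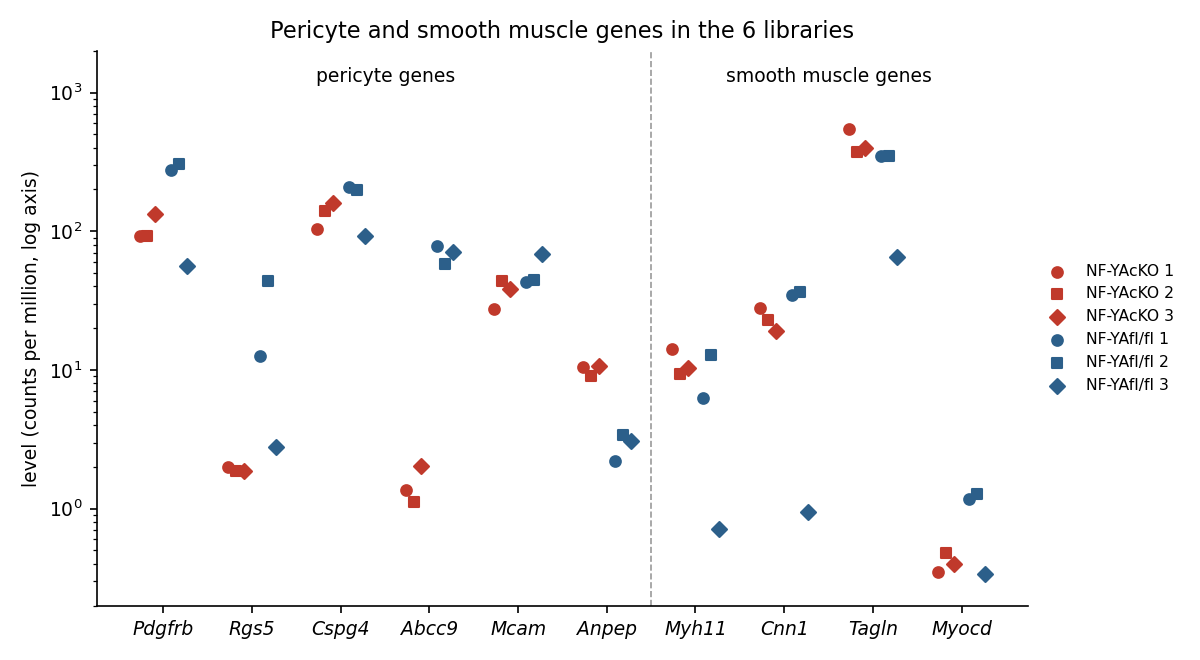
Level of the 10 genes in each library, in CPM on a log axis, with NF-YAcKO in red and NF-YAfl/fl in blue and 1 symbol per replicate number. Abcc9 and Anpep show the genotypes apart, and for 6 of the 10 genes the lowest point is NF-YAfl/fl replicate 3.

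Abcc9 was at 1.37, 1.11 and 2.02 CPM in the NF-YAcKO libraries and at 78.8, 57.7 and 71.2 CPM in the NF-YAfl/fl libraries. The groups were far apart, and the controls lay close together, replicate 3 included. The log2 fold change was -5.52 (SE 0.26, edgeR FDR = 5.72e-05), which is 45.9-fold lower, and it was -5.50 without NF-YAfl/fl replicate 3. Abcc9 lies on chromosome 6 of GRCm38 (mm10), minus strand, from 142587862 to 142702315, and a gene on the opposite strand, 5330439B14Rik, overlaps it.

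The gene has alternative last coding exons. The upstream of these, when included, gives the SUR2A end of the protein, known from heart and skeletal muscle, and when skipped the SUR2B end, known from smooth muscle and pericytes. Their coding parts are shown because they encode the end of the muscle form and that of the vascular form. Both run from the splice site to the stop codon, which is in capitals, on the minus strand of GRCm38, and were read from the reference genome.
Included exon, SUR2A end, chr6:142594005-142594142: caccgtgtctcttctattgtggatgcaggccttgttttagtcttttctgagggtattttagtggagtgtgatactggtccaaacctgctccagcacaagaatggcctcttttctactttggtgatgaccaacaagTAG
Downstream exon, SUR2B end, chr6:142590366-142590503: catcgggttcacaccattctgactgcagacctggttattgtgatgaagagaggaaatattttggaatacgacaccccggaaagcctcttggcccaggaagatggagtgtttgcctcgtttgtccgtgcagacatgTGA
Each part is 138 bases long, and 70 of the 138 positions are identical when they are set side by side without gaps (50.7%). That comparison concerns the coding parts only. Reads within the downstream exon need not come from a transcript that skips the upstream exon.

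Of the 10 Abcc9 transcripts in the files, 3 include the 176-base exon, 1 skips it and 6 could not be placed with the annotation used here. In NF-YAfl/fl, the transcripts with the exon received 1536, 1416 and 1503 expected counts, or 74.4%, 73.0% and 71.6% of the gene's counts. The transcript without it received 407, 335 and 291 counts, or 19.7%, 17.3% and 13.8%. The SUR2A form was thus the larger in every control library. In the NF-YAcKO libraries, the 3 transcripts with the exon held 16.6, 13.2 and 0 counts and the transcript without it 0, 0 and 57.6, too few to compare the forms. The split of reads between transcripts of a gene is RSEM's estimate.

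**Figure D2:**
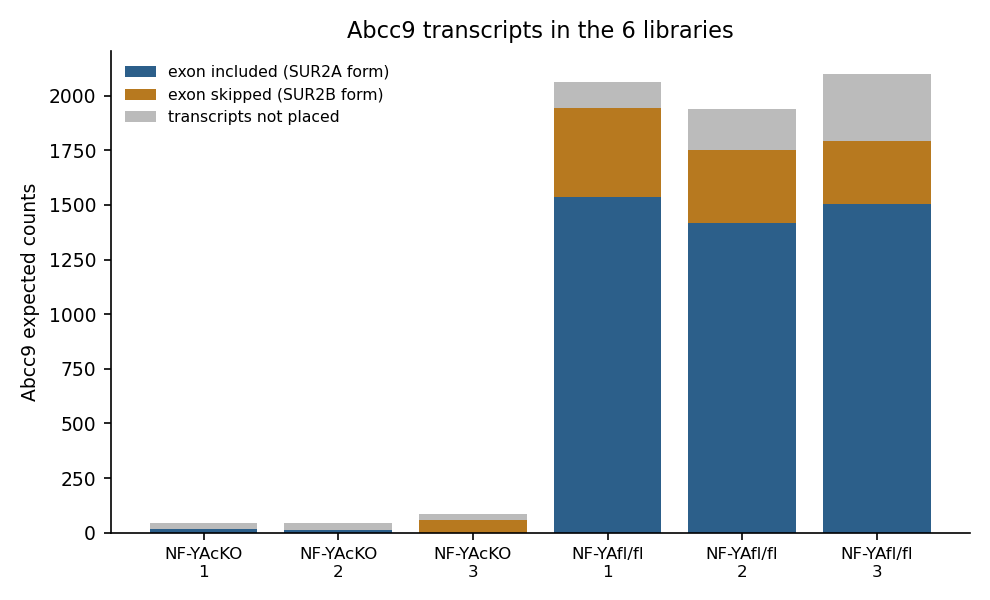
Expected counts of Abcc9 in each library, as stacked bars of the transcripts that include the exon (SUR2A form), the transcript that skips it (SUR2B form) and the transcripts not placed. The included form takes 1416 to 1536 counts in the controls, and the NF-YAcKO bars are near 0.

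SUR2 works only together with a pore subunit. The pore of pericytes and vascular smooth muscle is Kir6.1, encoded by Kcnj8, which was at 0.159, 0.241 and 0.282 CPM in NF-YAcKO and 0.153, 0.119 and 0.102 CPM in NF-YAfl/fl and was not tested. The pore of skeletal muscle is Kir6.2, encoded by Kcnj11, which was added after its values were seen. Kcnj11 was at 0.255, 0.0241 and 0.305 CPM in NF-YAcKO and 3.02, 1.72 and 1.42 CPM in NF-YAfl/fl, low in both but without overlap (log2 fold change -3.39, SE 0.67, edgeR FDR = 0.0081). When any NF-YAcKO library or NF-YAfl/fl replicate 1 or 2 was left out, the log2 fold change was -3.97 to -2.88 and the call was lost (FDR = 0.0147 to 0.0298), as it was with the replicate block (0.0152), limma on log2(TPM + 1) (0.0125) and a null of up to 1 (0.0427). Abcc8, the other sulfonylurea receptor, was also low, at 0.414 to 0.752 CPM in NF-YAcKO and 1.66 to 2.03 CPM in NF-YAfl/fl (log2 fold change -1.76, SE 0.30, edgeR FDR = 0.00464). It was not called without any single NF-YAcKO library or without NF-YAfl/fl replicate 1, and was -1.70 without NF-YAfl/fl replicate 3.

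The genes whose levels over the 6 libraries lay nearest to those of Abcc9, among the 14125 tested genes that averaged 1 CPM or more, were Lmod2, Ldb3 and Gprc5c, with root mean square differences of 0.17, 0.21 and 0.22 in log2 CPM after centring. All 10 listed genes of differentiated skeletal muscle, such as Myog and Ckm, were called lower, and their summed level was 621 to 1403 CPM in NF-YAcKO and 43317 to 52396 CPM in NF-YAfl/fl. The part of that difference in the Abcc9 result was not tested.

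Anpep was at 10.5, 9.04 and 10.8 CPM in the NF-YAcKO libraries and 2.22, 3.39 and 3.05 CPM in the NF-YAfl/fl libraries. Both groups were tight and did not overlap. The log2 fold change was 1.81 (SE 0.21, edgeR FDR = 0.00124), or 3.49-fold higher, and 1.83 without NF-YAfl/fl replicate 3. The call was lost where the null was a log2 change of up to 1 (FDR = 0.0164). Anpep lies at chr7:79821803-79861059 on the minus strand, where Gm44974 overlaps it on the same strand.

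CD13 is found on pericytes, fibroblasts and myeloid cells. All 8 listed macrophage genes were called higher, with a sum of 235, 246 and 127 CPM in NF-YAcKO and 8.67, 11.6 and 5.39 CPM in NF-YAfl/fl. Of the 8 listed fibro-adipogenic genes, 1 was called higher and 0 lower (over all tested genes, 4.65% and 7.67%). Their sum was 1445 to 1799 CPM in NF-YAcKO and 469 to 1888 CPM in NF-YAfl/fl. The part of macrophages or fibroblasts in the Anpep difference was not tested. The gene nearest to Anpep over the 6 libraries was Fuom, at a root mean square difference of 0.08.

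Rgs5, a regulator of G protein signalling used as a defining pericyte gene, was at 2.01, 1.88 and 1.88 CPM in NF-YAcKO and 12.6, 44.0 and 2.78 CPM in NF-YAfl/fl. The NF-YAcKO values were nearly the same, whereas the controls were spread over more than an order of magnitude, with replicate 3 just above the NF-YAcKO libraries. The log2 fold change was -3.37 (SE 0.90, edgeR FDR = 0.0249), which did not pass the FDR threshold. With DESeq2 the gene was called (FDR = 0.00235), and without NF-YAfl/fl replicate 3 it was called lower by edgeR, with a log2 fold change of -3.89 (SE 0.49, FDR = 0.00121). Without NF-YAfl/fl replicate 2, the highest library, it was -2.01 (FDR = 0.0417), with the replicate block -2.64 (FDR = 0.0556) and with limma on log2(TPM + 1) -1.74 (FDR = 0.131), none of them called. Slc5a7 and Wisp2 had the nearest profiles, at 0.50 and 0.54.

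Pdgfrb, the receptor for PDGF-B and PDGF-D, was at 92.7, 92.9 and 134 CPM in NF-YAcKO and 276, 304 and 56.5 CPM in NF-YAfl/fl. Controls 1 and 2 were above every NF-YAcKO library and control 3 below all of them. The log2 fold change was -0.99 (SE 0.56, edgeR FDR = 0.199), and without NF-YAfl/fl replicate 3 it was called lower at -1.45 (SE 0.17, FDR = 0.000911). Ebf2 had the nearest profile, at a root mean square difference of 0.12.

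Cspg4, the proteoglycan NG2, was at 104, 139 and 160 CPM in NF-YAcKO and 208, 198 and 93.1 CPM in NF-YAfl/fl. Its order of libraries was much like that of Pdgfrb, which was its nearest gene within the set (root mean square difference 0.48), and its log2 fold change of -0.31 (SE 0.31, edgeR FDR = 0.466) became -0.60 (FDR = 0.0241) without NF-YAfl/fl replicate 3. Mcam, the adhesion molecule CD146, was at 27.5, 43.8 and 38.5 CPM in NF-YAcKO and 43.2, 44.4 and 68.9 CPM in NF-YAfl/fl, with an overlap (log2 fold change -0.51, SE 0.24, edgeR FDR = 0.135, and -0.26 without NF-YAfl/fl replicate 3). It was the only gene of the set for which NF-YAfl/fl replicate 3 was the highest of the 6 libraries.

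The files list 3 transcripts of Mcam. A transcript of 2852 bases took 10.9%, 7.18% and 10.2% of the gene's expected counts in NF-YAcKO and 17.6%, 19.8% and 20.1% in NF-YAfl/fl, without overlap, and most of the rest belonged to a transcript of 2892 bases. The split is RSEM's estimate between transcripts of nearly equal length, and its difference between the genotypes was not tested. Mcam overlaps Gm10687, on the opposite strand, by 17 bases.

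None of the 4 smooth muscle genes was called with all 6 libraries. Tagln, which encodes the actin-binding protein SM22, was at 545, 373 and 401 CPM in NF-YAcKO and 346, 348 and 64.8 CPM in NF-YAfl/fl. All NF-YAcKO values were above all control values, but NF-YAcKO replicate 2 was only slightly above control 2 (log2 fold change 0.80, SE 0.56, edgeR FDR = 0.299, and 0.34 without NF-YAfl/fl replicate 3). Tagln overlaps Pcsk7 by 108 bases and Gm48529 by 3627 bases on the opposite strand. The strand setting of the counting is not given in the sources used here, and Pcsk7 itself was at 30.8 to 34.4 CPM in NF-YAcKO and 37.7 to 48.7 CPM in the controls. Tfpi2 had the nearest profile to Tagln, at 0.12.

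Cnn1, calponin, was at 27.9, 22.8 and 19.2 CPM in NF-YAcKO and 34.5, 36.6 and 0.949 CPM in NF-YAfl/fl. The controls lay on either side of the NF-YAcKO libraries, and replicate 3 was 37.4-fold below the mean of the other controls. The log2 fold change was -0.04 (SE 0.95, edgeR FDR = 0.975), had the opposite sign under 6 of 17 alternative settings, and was -0.62 (FDR = 0.0168) without NF-YAfl/fl replicate 3.

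Myh11, the heavy chain of smooth muscle myosin, was at 14.1, 9.36 and 10.3 CPM in NF-YAcKO and 6.30, 12.8 and 0.712 CPM in NF-YAfl/fl, with an overlap (log2 fold change 0.76, SE 0.79, edgeR FDR = 0.475, and 0.22 without NF-YAfl/fl replicate 3). Its forms SM1 and SM2 differ by a 39-base exon near the end of the gene (chr16:14198050-14198088, minus strand, GRCm38). The transcript without it, which encodes SM1, held 360 to 391 expected counts in NF-YAcKO and 165, 408 and 21.0 in NF-YAfl/fl. The transcript with it, which encodes SM2, received 0 counts in all 6 libraries. Only reads that reach this exon or its junctions can tell the forms apart, and RSEM splits the other reads by estimate. The 0 counts therefore set no upper limit on SM2. Of the other Myh11 transcripts, which were not placed for this exon, a model of 4454 bases held 52.9, 27.9 and 49.3 counts in NF-YAcKO and 0.04, 22.9 and 0 in NF-YAfl/fl, and the rest held 0.

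Myocd, the coactivator of SRF, was the least abundant of the set. It was at 0.351, 0.482 and 0.399 CPM in NF-YAcKO and 1.18, 1.28 and 0.339 CPM in NF-YAfl/fl. Control 3 was again the lowest of the 6, and the log2 fold change of -1.17 (SE 0.51, edgeR FDR = 0.109) became -1.57 (SE 0.29, FDR = 0.00488, called lower) without it.

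**Figure D3:**
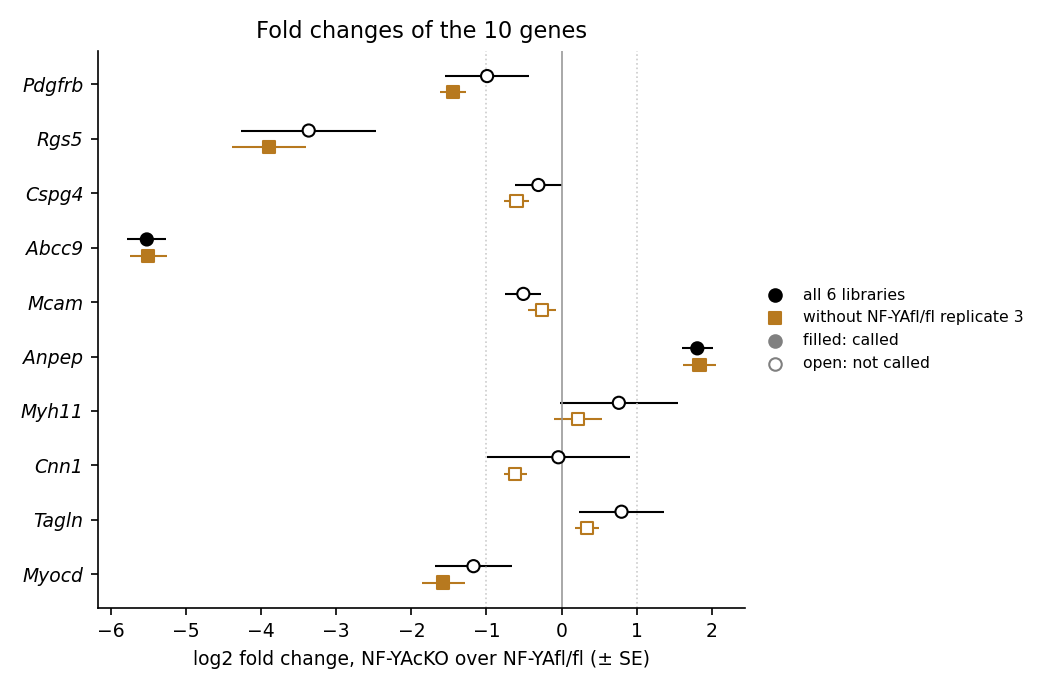
Log2 fold change of NF-YAcKO over NF-YAfl/fl with its standard error, with all 6 libraries (circles) and without NF-YAfl/fl replicate 3 (squares); filled symbols are called. Abcc9 and Anpep are filled in both fits, and Pdgfrb, Rgs5 and Myocd only without that library.

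NF-YAfl/fl replicate 3 differed from the other controls in most of the set. It was the lowest of the 6 libraries for 6 of the 10 genes (26.4% of tested genes) and below 0.5 times the mean of the other controls for 7 of the 10 (12.1% of tested genes). The sum of the 4 smooth muscle genes was 388, 399 and 66.8 CPM in the controls and 587, 406 and 431 CPM in NF-YAcKO. The median coefficient of variation of the 10 genes was 0.596 in NF-YAfl/fl and 0.211 in NF-YAcKO, against 0.207 and 0.0797 over all tested genes. Among genes of other cell types, this library was the lowest of the 6 for 8 of the 8 fibro-adipogenic genes, whose sum was 469 CPM there, 1337 and 1888 CPM in the other controls and 1445 to 1799 CPM in NF-YAcKO. Its sum of SC and myoblast genes was 2447 CPM, against 1005 to 1275 CPM in the other 5 libraries, with Myod1 (1145 CPM) and Itga7 (894 CPM) making up most of it. Pax7 was at 105 CPM there, below the NF-YAcKO libraries (145 to 201 CPM). The share of mural or fibroblast-like cells in the cultures was not tested.

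**Figure D4:**
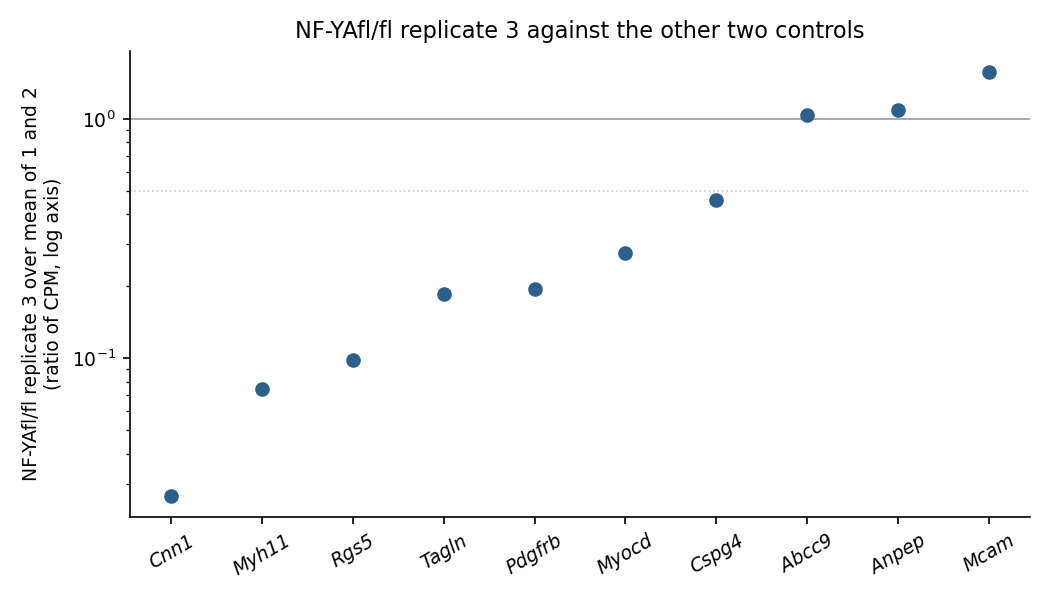
Level in NF-YAfl/fl replicate 3 divided by the mean of NF-YAfl/fl replicates 1 and 2, as a ratio of CPM on a log axis, for each of the 10 genes in rising order. The solid line is 1 and the dotted line 0.5; Cnn1 is lowest, 7 genes are under 0.5, and Abcc9, Anpep and Mcam are above 1.

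Levels of different genes were compared in TPM, a level scaled to transcript length and to the same total in each library. In NF-YAfl/fl the order of mean TPM was Tagln (218), Pdgfrb (50.6), Cspg4 (25.0), Cnn1 (23.9), Mcam (21.3), Abcc9 (10.6), Rgs5 (6.92), Myh11 (1.33), Anpep (0.98) and Myocd (0.157). Only the steps from Mcam to Abcc9 and from Anpep to Myocd were without overlap of the libraries. In NF-YAcKO the order was Tagln (334), Pdgfrb (22.1), Cnn1 (20.1), Cspg4 (18.1), Mcam (14.2), Anpep (3.21), Myh11 (1.98), Rgs5 (0.553), Abcc9 (0.227) and Myocd (0.0667). There, Pdgfrb, Cnn1, Cspg4 and Mcam overlapped as neighbours, as did Anpep with Myh11, and the other steps did not. Abcc9 was the sixth gene in the controls and the ninth in NF-YAcKO cells, and Anpep the ninth and the sixth.

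NF-Y binds the CCAAT box, and SRF the CArG box, so the promoters in hand were searched for both on both strands. RefSeq promoter windows (GRCm38.p6, 250 bases before to 50 after the start) were matched for 6 of the 10 genes, and those for Tagln, Myh11, Myocd and Pdgfrb were not used here. CCAAT was found in 2 of the 6 windows and in 37.4% of all 32851 windows. A CArG box was found in 0 of the 6 and in 1.63% of all. Cnn1 was the only smooth muscle gene with a window searched. With so few windows and so rare a box, that 0 says nothing about SRF sites in the set. The windows with a CCAAT are shown with those of both called genes, which have none, and the motif, or ATTGG where it is on the opposite strand, is in capitals.
Rgs5, chr1:169655251-169655550, plus strand: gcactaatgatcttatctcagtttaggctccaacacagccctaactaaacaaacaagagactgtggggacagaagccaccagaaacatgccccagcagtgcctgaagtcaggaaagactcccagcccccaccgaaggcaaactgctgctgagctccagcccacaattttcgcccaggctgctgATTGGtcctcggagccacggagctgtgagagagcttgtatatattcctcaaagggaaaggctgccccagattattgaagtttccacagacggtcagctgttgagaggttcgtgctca
Cnn1, chr9:22099003-22099302, plus strand: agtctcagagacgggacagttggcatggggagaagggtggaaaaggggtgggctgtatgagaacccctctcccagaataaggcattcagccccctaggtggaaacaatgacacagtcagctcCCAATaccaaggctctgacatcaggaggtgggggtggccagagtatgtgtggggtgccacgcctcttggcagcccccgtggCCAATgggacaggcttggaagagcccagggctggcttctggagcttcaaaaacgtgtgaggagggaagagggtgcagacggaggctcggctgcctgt
Abcc9, chr6:142702225-142702524, minus strand: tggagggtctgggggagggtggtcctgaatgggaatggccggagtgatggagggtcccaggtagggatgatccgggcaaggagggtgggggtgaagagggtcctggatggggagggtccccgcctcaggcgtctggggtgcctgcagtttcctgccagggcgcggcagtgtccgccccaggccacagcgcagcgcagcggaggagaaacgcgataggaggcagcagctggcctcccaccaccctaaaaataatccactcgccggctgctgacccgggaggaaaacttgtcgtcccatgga
Anpep, chr7:79848161-79848460, minus strand: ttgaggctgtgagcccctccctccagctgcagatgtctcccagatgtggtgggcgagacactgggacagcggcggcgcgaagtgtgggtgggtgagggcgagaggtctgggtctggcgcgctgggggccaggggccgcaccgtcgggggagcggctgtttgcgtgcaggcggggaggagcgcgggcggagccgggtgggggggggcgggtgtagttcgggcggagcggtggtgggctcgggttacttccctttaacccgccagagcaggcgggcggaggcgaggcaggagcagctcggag
The box of Rgs5 lies 67 bases before the start on the opposite strand, and those of Cnn1 lie 128 and 47 bases before it. The windows of Cspg4 and Mcam hold neither motif. The Anpep window lies within the annotated gene, which reaches base 79861059 on the minus strand, and the start at that end was not searched. A match is a description of these letters, and binding was not measured in these libraries.

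Among 18 further pericyte genes, 15 were tested and none was called with all 6 libraries by edgeR, with a median log2 fold change of -0.44. Notch3, a Notch receptor on the pericyte list, was at 18.5, 14.5 and 18.3 CPM in NF-YAcKO and 55.1, 113 and 27.7 CPM in NF-YAfl/fl. The groups did not overlap (log2 fold change -1.94, SE 0.47, edgeR FDR = 0.0177). DESeq2 called Notch3 lower (FDR = 7.45e-05), and without NF-YAfl/fl replicate 2 the log2 fold change was -1.29 (FDR = 0.0192). Without NF-YAfl/fl replicate 3, edgeR called 5 of the pericyte genes lower, namely Notch3, Kcne4, Tbx18, Ebf1 and Rgs4. In that fit 9.81% of all tested genes were called lower. Steap4 had the opposite sign, at 5.90, 0.820 and 1.67 CPM in NF-YAcKO and 0.267 to 0.407 CPM in NF-YAfl/fl (log2 fold change 2.99, SE 0.78, edgeR FDR = 0.0229). DESeq2 called Steap4 higher (FDR = 0.000298), and without NF-YAcKO replicate 1 the log2 fold change was 1.81 (FDR = 0.0332).

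Of 20 further contractile genes, 19 were tested, 6 were called lower and 0 higher, with a median log2 fold change of -0.65. Over all tested genes, 7.67% were called lower and 4.65% higher. Des, which encodes desmin, was at 295, 312 and 373 CPM in NF-YAcKO and 1527, 1217 and 1429 CPM in NF-YAfl/fl (log2 fold change -2.09, SE 0.14, edgeR FDR = 0.000218). Tpm2, a tropomyosin (log2 fold change -1.82), Synpo2 (-1.64), Nexn (-1.38) and Acta2 (-1.20) were also called lower. Desmin and Tpm2 are also used by skeletal muscle fibres, and Acta2, smooth muscle actin, by differentiating myoblasts and myofibroblasts. NF-YAfl/fl replicate 3 did not stand apart in Acta2 (1717 CPM, against 1739 and 1388), unlike in Actg2, the other smooth muscle actin, which was at 18.9, 29.6 and 1.15 CPM in the controls and 12.9 to 16.2 CPM in NF-YAcKO. The contractile count was 5 without NF-YAcKO replicate 1 or NF-YAfl/fl replicate 1. It was 4 without NF-YAcKO replicate 2 or replicate 3 and 7 without NF-YAfl/fl replicate 3. Nexn was not called without any single NF-YAcKO library (edgeR FDR = 0.0131 to 0.0152) or without NF-YAfl/fl replicate 1 (0.0102). Acta2 was not called without NF-YAcKO replicate 2 (edgeR FDR = 0.0124) or replicate 3 (0.0107).

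Among 18 ligands and regulators, 0 were called higher and 4 lower, with a median of -0.20. The shares over all tested genes were 4.65% higher and 7.67% lower. Tgfb2, a ligand of the TGF-β pathway that acts on smooth muscle genes, was at 9.08, 6.97 and 9.04 CPM in NF-YAcKO and 54.4, 44.7 and 125 CPM in NF-YAfl/fl (log2 fold change -3.16, SE 0.41, edgeR FDR = 0.00187). Klf5 (-2.20), Tgfb3 (-1.18) and Pdgfc (-1.16) were the others. Without NF-YAfl/fl replicate 3, the highest library for both, Tgfb2 was at -2.57 and Klf5 at -1.56 on the log2 fold change scale, still called. With the replicate block Klf5 was not called (FDR = 0.013). When any NF-YAcKO library was left out, neither was called (edgeR FDR = 0.0103 to 0.0139 for Tgfb2 and 0.0345 to 0.042 for Klf5). Klf5 was also not called without NF-YAfl/fl replicate 1 (FDR = 0.0248) or with a null of up to 1 (FDR = 0.084). Over the list, 2, 1 and 2 genes were called lower when NF-YAcKO replicate 1, 2 or 3 was left out and 5 without NF-YAfl/fl replicate 3. Pdgfa, the ligand of PDGFRα, was at 62.3 to 71.4 CPM in NF-YAcKO and 33.8 to 36.6 CPM in NF-YAfl/fl (log2 fold change 0.90, FDR = 0.000921, under the fold threshold), and Pdgfb, the ligand that recruits pericytes, was at 7.20 to 9.45 and 4.61 to 6.42 CPM (0.69, FDR = 0.0348). Srf was at 80.1 to 85.1 CPM in NF-YAcKO and 60.8 to 70.5 CPM in the controls (0.30, FDR = 0.0429).

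Of 11 close relatives of the set, 1 was called higher and 1 lower, against 4.65% higher and 7.67% lower over all tested genes. Tagln2, a relative of Tagln used in many cells outside smooth muscle, was at 382, 361 and 342 CPM in NF-YAcKO and 147, 193 and 90.0 CPM in NF-YAfl/fl (log2 fold change 1.34, SE 0.26, edgeR FDR = 0.00742), and the gene called lower was Abcc8. Neither was called without any single NF-YAcKO library or without NF-YAfl/fl replicate 1, and Tagln2 was at 1.09, still called, without NF-YAfl/fl replicate 3. Myh9, the nonmuscle myosin, was at 1920 to 1970 CPM in NF-YAcKO and 1995 to 2104 CPM in the controls.

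**Figure D5:**
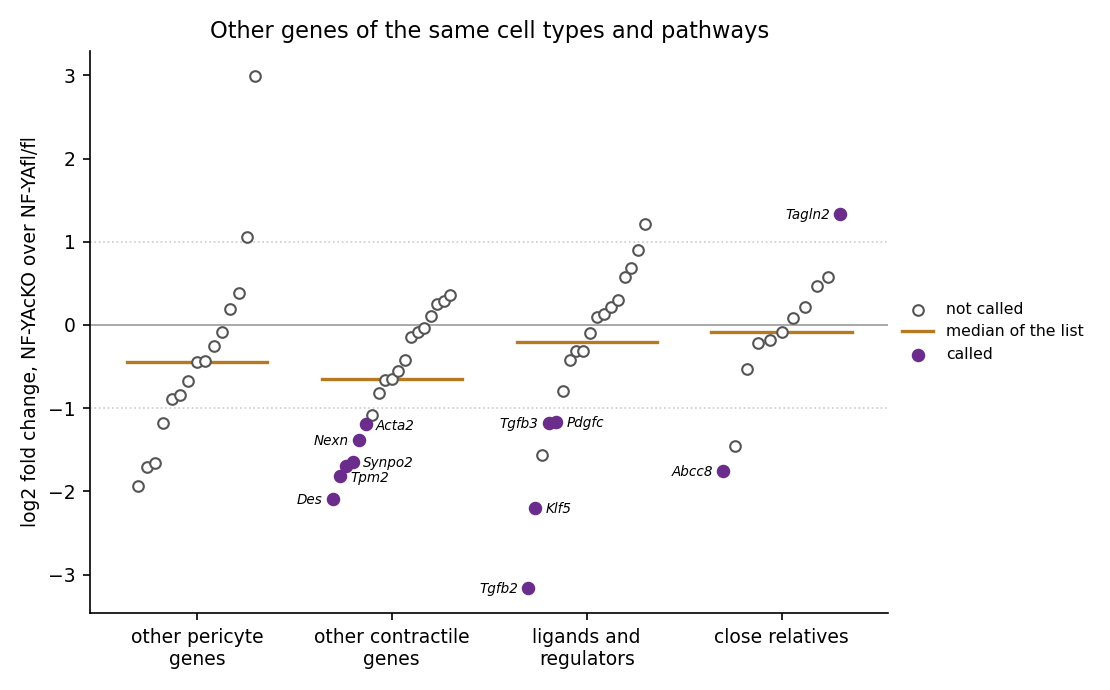
Log2 fold change of NF-YAcKO over NF-YAfl/fl for the tested genes of 4 lists, 1 point per gene in rising order within its list, with called genes filled, most of them named, and the list's median as a line. The called contractile and regulator genes are all below 0, and no gene of the pericyte list is filled.

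Genes of other cell types that the preparation could hold were not at equal levels. For the counts below, 4.65% of all tested genes were called higher and 7.67% lower. Besides the macrophage genes, 5 of 7 Schwann cell genes were called higher (sum 79.1 to 87.8 CPM in NF-YAcKO; 22.1, 21.5 and 75.3 CPM in NF-YAfl/fl). Without Ngfr, which was not called and was at 59.3 CPM in NF-YAfl/fl replicate 3, the other 6 Schwann cell genes summed to 42.7 to 45.8 CPM in NF-YAcKO and 10.97, 11.26 and 15.97 CPM in the controls. Of the endothelial genes, 2 were called higher and 1 lower, at a summed level of 19.1 to 24.5 CPM in NF-YAcKO and 12.4 to 14.5 CPM in the controls, with Cldn5 under 0.2 CPM in all libraries. Of the fibro-adipogenic genes 1 was called higher, and of the SC and myoblast genes 0 were called higher and 1 lower. Without NF-YAfl/fl replicate 3, these counts were 2 higher and 2 lower for the fibro-adipogenic genes, and 2 higher and 1 lower for the SC and myoblast genes. The part of these cell types in the values of the 10 genes was not tested.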

How the data were processed

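RNA-seq was measured in 3 NF-YAcKO and 3 NF-YAfl/fl libraries (stranded total RNA kit), grouped by their titles. The labels do not state that each library is a separate mouse, so p-values measure the spread between these libraries. Alignment by the authors was with Bowtie2, against mm10 transcripts, and RSEM gave the estimates. Expected counts, as deposited, carry no normalization, the deposited TPM are scaled by the authors' software to transcript length, and the deposited percent values give each transcript's share of the gene's TPM. Reads shared by paralogs or overlapping genes are split by estimate.

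Rounded expected counts of genes exceeding 10 in 2 libraries or more were kept, and edgeR 4.0.16 (R 4.3.3) was fitted to all 6 libraries with TMM and the genotype alone, with FDR over all tested genes. The procedure was tested on simulated counts. CPM are counts per 1000000 of the library total multiplied by its TMM factor. Gene positions and exons are those of GENCODE for GRCm38. The 10 genes and the lists (pericyte, contractile, regulators, relatives, endothelial, fibro-adipogenic, macrophage, Schwann, SC and myoblast, differentiated muscle) were chosen with earlier results of these data known. Named are all 10 genes, up to 3 called genes of the first 4 lists in each direction, the nearest profiles, Nfya, Xist and Ddx3y, and genes needed for a stated count; a gene that this rule names is not reported here. Alternatives were DESeq2 1.42.0, limma 3.58.1 on log2(TPM + 1) and log2(TPM + 0.1), other scalings, filters and thresholds, a replicate block and leaving out each library.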

Additional observations from a re-analysis of the deposited data

How the results depend on the processing

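Abcc9 was called lower under all 17 alternatives (log2 fold change -5.83 to -3.24). Anpep was called higher under all but the test with a null of up to 1 on the log2 scale. In that test, genes of the set called higher numbered 0, contractile genes called lower 3, regulators called lower 1, and relatives 0 in both directions. The genes of the set called lower were 2 with DESeq2, 2 at an FDR under 0.05, and 1 to 4 when a library was left out. Pericyte genes called higher were 1 with DESeq2 and 1 at an FDR under 0.05, and those called lower were 1 with DESeq2, 1 without a filter, 2 at an FDR under 0.05 and 0 to 5 when a library was left out. Regulators called higher were 1 at an FDR under 0.05, and those called lower 1 to 5 when a library was left out. Relatives called higher were 0 with upper-quartile normalization and 0 in both directions with limma on either TPM scale, and 0 to 1 when a library was left out. With the replicate block the genes of the set called were 1 higher and 1 lower, and the relatives called lower 0. Deviations of libraries with the same number had correlations of 0.17, -0.07 and 0.05, against -0.14 to 0.10 for different numbers. With 3 libraries per genotype, these values cannot show whether the numbers mark a pairing.

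The log2 fold change of Cnn1 (-0.62 without NF-YAfl/fl replicate 3) reversed to 0.70 and 1.06 with limma on log2(TPM + 1) and log2(TPM + 0.1), 0.69 with the replicate block, 0.04 without NF-YAcKO replicate 3, and 0.30 and 0.39 without NF-YAfl/fl replicates 1 and 2. That of Actg2 (-0.71 without NF-YAfl/fl replicate 3) reversed to 0.42 and 0.66 with limma on those scales, 0.51 with the replicate block and 0.57 without NF-YAfl/fl replicate 2, and that of Lmod1 (-0.94 without NF-YAfl/fl replicate 3) to 0.014 with the block and 0.14 without NF-YAfl/fl replicate 2. The cause was not tested. Over all tested genes, 806 were called higher and 1331 lower, against 986 and 1804 with DESeq2, 231 and 704 with limma on log2(TPM + 1), 361 and 1067 on log2(TPM + 0.1), 97 and 510 in the test with a fold as null, 625 and 947 with the block, and 177 to 890 and 523 to 1684 when a library was left out.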
